A study of Homo sapiens with 12 samples.

Results

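Baseline gene expression was compared between 2 human cell lines that the labels call multiple myeloma, U266 and 8226R5, on their untreated (DMSO) arrays. The comparison takes 4 of the 12 arrays of the series, the U266 controls 1 and 2 against the 8226R5 controls 1 and 2. It covers the 10287 genes with a probe detected on 2 or more of these 4 arrays. U266, labelled p53 mutant, and 8226R5, labelled p53 null (its cell line field spells 8266R5), were each grown in duplicate wells and kept for 8 h in DMSO, the solvent of the drug PRIMA-1Met. The other arrays hold both lines after 8 h in 40 µM PRIMA-1Met and the line MM.1S, labelled p53 wild type, with and without the drug. The DMSO arrays of MM.1S enter here as a further myeloma line for comparison of levels. The labels do not say how 8226R5 was derived, and they do not call the 2 samples of a line separate cultures. The p-values therefore rest on replicate spread that may be purely technical, and each line is a single line, so line, p53 label and origin cannot be told apart.

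Multiple myeloma is a cancer of plasma cells, the antibody-secreting end stage of B cells. Plasma cells are built around a small set of transcription factors (IRF4, PRDM1 and XBP1), surface receptors such as TNFRSF17 (BCMA, the receptor for the survival factors BAFF and APRIL) and SDC1 (CD138), and a large secretory apparatus. Myelomas differ from each other in the oncogene they carry: many switch on a D-type cyclin or MAF by a translocation to an immunoglobulin locus, and U266 is known for CCND1. U266 is also known as a line that makes and responds to interleukin-6.

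Levels are the authors' quantile-normalised log2 values, so 1 unit is a 2-fold difference, and differences are U266 minus 8226R5. A probe was taken as detected on an array when its detection p-value, a comparison with negative control beads, was under 0.01. Detected probes numbered 16025 and 15849 of 47321 on the U266 arrays, against 14336 and 14164 on the 8226R5 arrays. Across genes, the arrays of a line correlated at r = 0.997 (U266) and 0.996 (8226R5), and arrays of the 2 lines at 0.755 to 0.756. The corresponding values against MM.1S were 0.848 to 0.849 for U266 and 0.812 to 0.813 for 8226R5, where the genes are no independent replicates and were chosen for detection in U266 or 8226R5.

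The arrays labelled 8226R5 go against a plasma cell label. TNFRSF17 stood at 14.18 and 14.16 on the U266 arrays, against 4.42 and 4.27 on the 8226R5 arrays, where it was not detected; MM.1S had 14.09 and 14.03. JCHAIN, the joining chain of secreted IgA and IgM, stood at 13.45 and 13.38 in U266, against 4.97 and 5.30 in 8226R5, again not detected. IRF4 stood at 9.95 and 10.13 in U266, against 6.52 and 6.44, not detected, in 8226R5. The groups were far apart for each of these genes, and MM.1S lay with U266. Where a line was not detected on either array its level was set to the lowest detected signal of the array, which gives a lower bound. TNFRSF17 was at least 190-fold, JCHAIN at least 112-fold, POU2AF1 (a B-lineage coactivator) at least 22.4-fold, CD28 at least 13.3-fold and IRF4 at least 10.8-fold higher in U266 (limma adjusted p = 2.65e-10, 8.73e-10, 3.98e-09, 2.12e-08 and 1.07e-08). Here and below, an adjusted p beside a bound belongs to the difference of the unchanged log2 values, not to the bound. A bound holds for the brightest probe of a gene that passed the filter: of 274 genes with a bound and another such probe, the weakest other probe fell below the bound in 114, CD28 among them (2.08 log2 units).

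Of 21 plasma cell genes analysed, 18 were detected on both U266 arrays and 11 on both 8226R5 arrays, against 20 on each MM.1S array. Their mean log2 level was 10.40 and 10.44 in U266, 7.87 and 7.86 in 8226R5, and 11.69 and 11.71 in MM.1S. In the whole list 15 of 18 tested members were higher in U266 and 2 were lower, beside 39.6% of all 10287 tested genes in each direction. Of the 18 tested, 7 were detected in U266 only, so they could differ in 1 direction alone. SLAMF7, which did not pass, is among these (0.28 ± 0.13, limma adjusted p = 0.0846). SDC1 was detected in both lines, at 12.59 and 12.37 in U266 against 7.01 and 6.68 (difference 5.64 ± 0.13, standard error of the fit, as for all differences here), and TXNDC5, a disulfide isomerase of the secretory pathway, differed by 4.19 ± 0.07. The factors XBP1 and PRDM1 were detected in both lines and were higher in U266 by 2.66 ± 0.09 and 1.79 ± 0.08 (other probes of PRDM1 gave 0.36 and 0.84), and the stress transducer CREB3L2 by 2.98 ± 0.08. Against the direction of the list, MZB1, a chaperone of antibody assembly, was lower in U266 by a difference of -1.56 ± 0.09, and SEC11C, a signal peptidase subunit, by -0.30 ± 0.12. Both of these were highest in MM.1S, with means of 13.34 and 14.50. CD38, a classical plasma cell marker, was detected on no array of U266 or 8226R5 and on both of MM.1S (9.24 and 9.41).

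**Figure D1:**
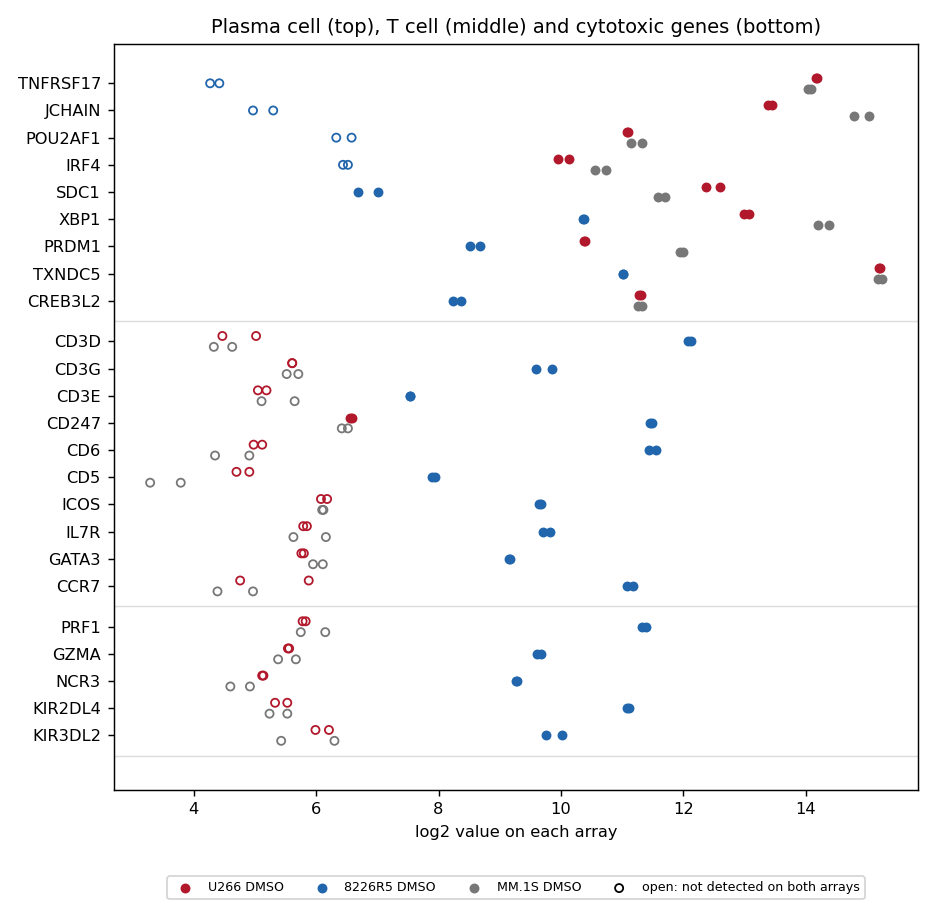
Log2 value on each DMSO array (2 per line) of plasma cell genes (top), T cell genes (middle) and cytotoxic genes (bottom) in U266, 8226R5 and MM.1S; open circles mark a line not detected on both arrays. The genes were picked from their lists. Members that go the other way, such as MZB1 and SEC11C (plasma cell) and SH2D1A (T cell), and undetected members are not shown. For the genes shown, MM.1S lies beside U266 in every block, and 8226R5 is low in the top block and high in the lower blocks.

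Genes of T cells, which were included among markers of other cell types, were detected on the 8226R5 arrays. CD3D, a chain of the T cell receptor complex, stood at 5.02 and 4.47 on the U266 arrays, not detected, against 12.13 and 12.07 on the 8226R5 arrays. CD3G stood at 5.61 and 5.61, not detected, against 9.85 and 9.59, and CD3E at a mean of 5.12, not detected, against 7.53. All 3 chains were undetected in U266 and in MM.1S and detected on both 8226R5 arrays. The lower bounds in favour of 8226R5 were 52-fold for CD3D, 10-fold for CD3G and 2.19-fold for CD3E, and EPCAM, an epithelial adhesion molecule, had the highest bound of the marker list at 135-fold (5.67 and 5.61 in U266, against 13.53 and 13.42 in 8226R5; adjusted p = 1.23e-09; other probes -6.93 and -3.69).

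Of 28 markers of other cell types analysed, 5 were detected on each U266 array and 12 and 11 on the 8226R5 arrays, against 4 on each MM.1S array. Their mean level was 5.79 and 5.86 in U266, 6.85 and 6.84 in 8226R5, and 5.93 and 5.97 in MM.1S. ALB (albumin) differed by -1.14 ± 0.10, but by 0.885 on the treated arrays. The collagen gene COL1A1 was at least 2.07-fold lower in U266, whereas PECAM1 was at least 1.82-fold higher. In neither line were 13 of the 28 markers detected, beside 9230 of all 20046 genes. The keratin genes KRT8 and KRT18 of this list were detected in 8226R5 only, as were KRT7 and KRT80 on the same chromosome. CDH1, of the adhesion list, was at least 4.61-fold lower in U266. Of 14 tested markers 10 were lower and 2 higher in U266, beside 39.6% of all tested genes each way. Of the 14, 9 were detected in 8226R5 only and 3 in U266 only, so these could differ in 1 direction alone.

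To describe the 8226R5 arrays further, 3 lists were added after their T cell genes had been seen, so they carry no test of their own. Of 20 genes of the T cell receptor complex and its signalling, 10 were detected on both 8226R5 arrays and neither U266 array, and 3 the other way round. Over all 20046 genes with a symbol these numbers were 791 and 1201. CD247, the zeta chain of that complex, differed by -4.90 ± 0.08, CD6 was at least 34.3-fold and ZAP70, the kinase that binds the receptor, at least 2.81-fold lower in U266. CD4, CD7 and CD8A were not detected on the 8226R5 arrays, and CD28 and SH2D1A were higher in U266. Of 24 cytotoxic and natural killer genes, 15 were detected on both 8226R5 arrays and neither U266 array, and 0 the other way round. PRF1 (perforin) was at least 31.1-fold, the receptor KIR2DL4 at least 25.9-fold, the granzyme GZMA at least 9.45-fold and the receptor NCR3 at least 7.32-fold lower in U266. The receptors of the KIR family are near-identical copies whose probes can share signal. Per array, 1 of these 24 genes was detected in U266, 16 in 8226R5 and 0 in MM.1S.

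Of 15 tested transcription factors and cytokine receptors of T cells, 12 were lower and 2 higher in U266, beside 39.6% of all tested genes each way. Of the lower ones 7 were detected in 8226R5 only. The lower ones included GATA3 (at least 6.76-fold), ICOS (at least 9.57-fold), IL7R (at least 10.3-fold) and CCR7 (at least 26.5-fold), with -3.19 ± 0.14 for the interleukin-2 receptor chain IL2RB. CTLA4 (6.52 on average in U266, near the detection level, against 5.12, not detected, in 8226R5) and IL12RB1 (0.36 ± 0.12) were higher in U266, TBX21 had a difference of -0.27 ± 0.11 (adjusted p = 0.0514), and FOXP3 and CCR4 were detected in neither line. On the treated arrays the plasma cell list was detected at 18 and 17 genes in U266 and 12 and 11 in 8226R5, and the cytotoxic list at 1 and 16, so the contrast stood on all 8 arrays of the lines. MAF, an oncogene translocated in part of myelomas, was detected on no array of U266 or 8226R5 and stood at 10.91 and 11.06 in MM.1S. What cells the 8226R5 arrays hold was not tested, the comparison cannot be made without them, and every difference below is from the arrays labelled 8226R5. Fewer cells of a type and less RNA per cell cannot be told apart in such bulk samples.

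Differences between the lines were the rule across genes. With limma, 8149 of 10287 genes passed an adjusted p of 0.05, which is 79.2% of those tested, with 4071 higher and 4078 lower in U266 (39.6% each). A further criterion of 2-fold left 3312 genes (32.2%), 1647 higher and 1665 lower in U266, and 512 genes differed by 8-fold or more. The median absolute difference was 0.62 log2 units and the 90th percentile 2.12, against a spread of the difference between replicates of 0.153 in U266 and 0.17 in 8226R5 (SD). The arrays of the lines did not overlap for 9220 genes (89.6%), so a single gene that passes is not a distinguishing feature and the size of its difference carries the information. All counts of higher and lower list members below stand beside the share of 39.6% of all tested genes in each direction.

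Of 20046 genes with a symbol, 7814 were detected on both arrays of both lines. A further 1201 were detected on both U266 arrays and neither 8226R5 array, 791 the other way round, and 9230 on no array of either line. The larger number on the U266 side stands beside the larger number of probes detected on the U266 arrays and their brighter signal, with a 90th percentile of 904.3 and 906.3 intensity units against 696.6 and 705.2; the part of that in the gene counts was not tested.

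**Figure D2:**
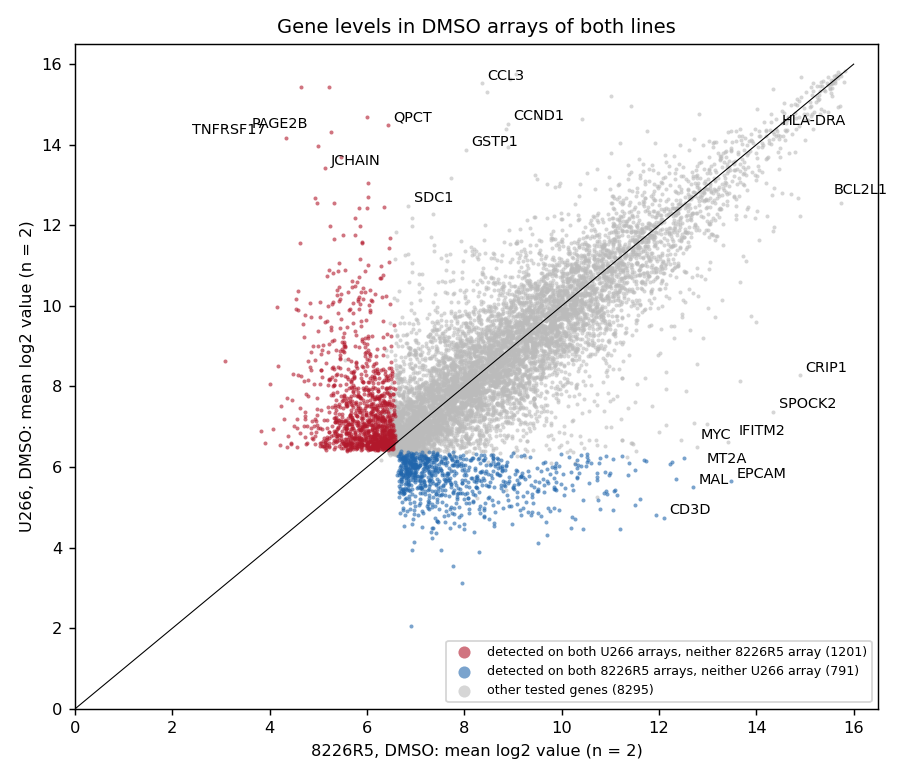
Mean log2 value of each of the 10287 tested genes in U266 (vertical) and 8226R5 (horizontal), n = 2 DMSO arrays per line, with the line of equality; colours mark genes detected on both arrays of 1 line and neither of the other (1201 for U266, 791 for 8226R5). TNFRSF17 and PAGE2B lie far above the line, and EPCAM, CD3D and SPOCK2 far below it.

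Among genes detected on all 4 arrays the highest differences in favour of U266 were in a chemokine. CCL3 (MIP-1 alpha, known in myeloma for driving bone resorption) stood at 15.56 and 15.49 in U266, against 8.31 and 8.40 in 8226R5 (difference 7.17 ± 0.08, adjusted p = 4.5e-10). Its near-identical copies CCL3L1 and CCL3L3 differed by 6.84 and 6.70, and their probes can share signal. MM.1S was as bright as U266 for all 3. IGLL1, a surrogate light chain gene whose probe may also take immunoglobulin light chain transcripts, differed by 6.68, while its other probe gave 0.63. The surface antigen CD52 (5.52 ± 0.09), the amino acid sensing GTPase RRAGD (5.45 ± 0.08) and CCPG1, a receptor for autophagy of the endoplasmic reticulum (5.27 ± 0.09, other probe 2.51), completed the upper end, with CCND1, GSTP1 and SDC1, which are described with their groups.

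At the lower end SPOCK2, a secreted proteoglycan, stood at 7.39 and 7.35 in U266, against 14.38 and 14.32 in 8226R5 (difference -6.98 ± 0.17). CRIP1, a small LIM-domain protein, differed by -6.61 ± 0.08, the cytoskeletal GTPase SEPTIN9 by -5.93 ± 0.07, the actin bundling protein FSCN1 by -5.78 ± 0.11, the mitochondrial membrane protein TSPO by -5.13 ± 0.08 (other probe -2.22) and the fatty acid carrier FABP5 by -5.10 ± 0.09 (other probe -3.69). CRIP1, SEPTIN9, TSPO and FABP5 were bright in MM.1S as well (12.82, 11.85, 11.23 and 11.72 on average) and low in U266 alone, while SPOCK2 and FSCN1 were high in 8226R5 alone.

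Genes detected in U266 and not in 8226R5 were led by QPCT, a glutaminyl cyclase that modifies secreted peptides, at 14.53 and 14.43 against 6.46 and 6.40 (at least 235-fold), and UCHL1, a ubiquitin hydrolase, at least 136-fold. The focal adhesion protein TNS3 was at least 87-fold and RENBP, an enzyme of sugar metabolism, at least 67.9-fold higher in U266, and MM.1S had all 4 of these genes. In the other direction MAL, a membrane protein of T and epithelial cells, stood at 5.91 and 5.07 in U266, not detected, against 12.73 and 12.66 in 8226R5 (at least 78.7-fold). The early response gene IER3 (at least 69.0-fold), the neuronal pentraxin NPTX1 (61.7), the membrane protein ITM2A (56.7), MBP (46.6), the exchange factor DOCK10 (40.5) and the activation antigen CD69 (39.4) were likewise below detection in U266. Other probes fell short of these bounds, at -2.10 log2 units for NPTX1, -3.09 and -3.87 for MBP, -2.88 for CD69 and -5.49 for MAL. MAL, NPTX1 and CD69 were undetected in MM.1S, whereas ITM2A, DOCK10 and MBP were detected there.

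The D-type cyclins, which start the cell cycle through CDK4 and CDK6, differed in opposite directions. CCND1 stood at 14.47 and 14.55 in U266, against 8.90 and 8.90 in 8226R5 and 8.02 and 8.02 in MM.1S (difference 5.61 ± 0.07, adjusted p = 5.53e-10). CCND2 stood at 12.94 and 12.90 in U266, against 14.36 and 14.35 (-1.44 ± 0.08), and CCND3 at 9.56 and 9.44, against 12.24 and 12.27 (-2.75 ± 0.08). The transcription factor E2F2, released by cyclin-dependent kinases, differed by 3.34 ± 0.08. CDKN2A, the inhibitor of CDK4 and CDK6, was detected in U266 only (8.03 and 7.90, against 5.84 and 5.78; at least 2.57-fold), as was its neighbour CDKN2B (at least 1.87-fold). Of the 17 tested cyclin and G1 genes 8 were higher and 8 lower in U266, beside 39.6% of all tested genes each way.

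MYC, a driver of growth in many myelomas, was lower in U266. It stood at 6.99 and 7.21 in U266, just above the detection level, against 12.71 and 12.72 in 8226R5 and 12.36 and 12.24 in MM.1S (difference -5.62 ± 0.09, adjusted p = 1.23e-09), and its other probe gave -5.26. MYCL stood at 7.03 and 6.78 in U266, against 5.46 and 5.25, not detected, in 8226R5 (at least 1.23-fold). ITGB7, an integrin of the MAF program in myeloma, differed by 2.67 ± 0.08, with a far higher level in MM.1S (15.82 and 15.84), and the chemokine receptor CCR1 was at least 1.85-fold higher in U266. FGFR3 was at least 3.64-fold lower in U266 by its kept probe, though another probe, which did not pass the filter, was detected on a U266 array. NSD2 passed the filter in neither line. TENT5C, a poly(A) polymerase mutated in myeloma, was higher in U266 by 2.25 ± 0.08.

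**Figure D3:**
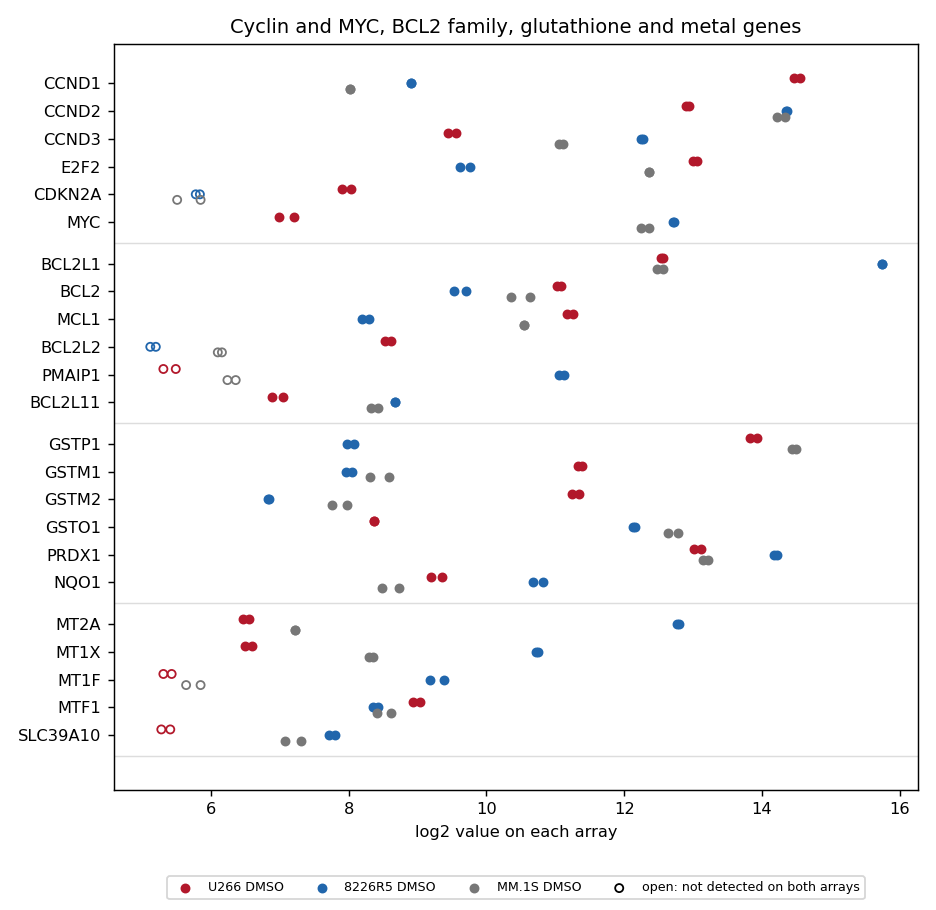
Log2 value on each DMSO array (2 per line) of cyclin and MYC genes, the BCL2 family, glutathione genes and metallothionein genes in U266, 8226R5 and MM.1S; open circles mark a line not detected on both arrays. CCND1 stands out in U266, MYC is low in U266 alone, and BCL2L1 and MT2A are highest in 8226R5.

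In the interleukin-6 pathway the cytokine and both receptor chains were higher in U266. IL6 stood at 8.56 and 8.46 in U266, against 6.66 and 6.69 in 8226R5 and 5.99 and 6.01 in MM.1S (difference 1.83 ± 0.08, adjusted p = 1.18e-07). IL6R, the ligand-binding chain, was at 8.91 and 8.94 in U266, against 5.55 and 5.43, not detected (at least 5.0-fold), and the signalling chain IL6ST differed by 1.54 ± 0.08 (its other probe by 0.35). The kinase TYK2 was higher by 1.39 ± 0.07, whereas STAT3, the main transcription factor of the pathway, differed by -0.05 ± 0.07 (adjusted p = 0.579). STAT5A differed by -3.73 ± 0.12, and CISH, a STAT5 target, was at least 5.09-fold lower in U266, as was the related cytokine OSM, at least 15.4-fold. PIM2, a survival kinase of plasma cells, differed by 3.03 ± 0.07, and the insulin receptor substrate IRS1 was at least 4.77-fold higher in U266. Of 29 tested members 10 were higher and 16 lower in U266, with a list median of -0.50 against 0.00 over all genes.

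NF-kB genes, which carry signals for survival and inflammation, differed in both directions among receptors, subunits and adaptors alike. Among receptors, TNFRSF17 was higher in U266, TNFRSF1A was at least 5.04-fold lower, and TNFRSF1B (TNF receptor 2) stood at 4.55 and 4.89 in U266, not detected, against 10.30 and 10.24 in 8226R5 (at least 14.6-fold). Of the subunits NFKB2, which carries the alternative pathway, was at least 7.2-fold higher in U266 (9.48 and 9.42 in U266 against 5.17 and 5.72 in 8226R5), REL was at least 2.34-fold lower, and RELB, the partner of NFKB2, differed by -0.14 ± 0.08 (adjusted p = 0.133). Among adaptors and ligases TRAF1 differed by -4.04 ± 0.12 (its other probe by -1.39), BIRC2 by -2.31 ± 0.09 (its other probe by -0.79), CYLD by -0.50 ± 0.11 and TRAF3, a brake on the alternative pathway that is often lost in myeloma, by 1.03 ± 0.09. The inhibitor NFKBIA had a difference of 0.08 ± 0.09 (adjusted p = 0.47). Of 26 tested members 10 were higher and 13 lower in U266, beside 39.6% of all tested genes each way.

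The BCL2 family holds the proteins that keep mitochondria intact and those that permeabilise them. Among the protectors, MCL1 stood at 11.17 and 11.26 in U266, against 8.30 and 8.20 in 8226R5 (2.96 ± 0.08), and BCL2 differed by 1.44 ± 0.11. BCL2L1 (BCL-XL) went the other way, at 12.54 and 12.56 against 15.74 and 15.74 (-3.19 ± 0.08, adjusted p = 5.34e-09), with 12.47 and 12.57 in MM.1S. BCL2L2 (BCL-W) was detected in U266 only, at least 3.91-fold higher. Among the death-promoting BH3-only members, PMAIP1 (NOXA), which binds MCL1, was at 5.31 and 5.49 in U266, not detected, against 11.12 and 11.05 in 8226R5 (at least 25.7-fold; another probe gave -1.79), and BCL2L11 (BIM) differed by -1.71 ± 0.09. BBC3, BAK1 and BAD differed by 0.03, -0.05 and -0.02 (adjusted p = 0.764, 0.585 and 0.832), and the other BAD probe by 0.735.

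Genes listed as p53 and its targets showed no common direction. Of 21 tested 9 were higher and 8 lower, beside 39.6% of all tested genes each way, with a median of -0.02. CDKN1A, the cell cycle inhibitor p21, stood at 11.22 and 11.04 in U266 and 11.74 and 11.86 in 8226R5 (-0.67 ± 0.09). TP53INP1 differed by 3.28 ± 0.08 and BAX by 0.79 ± 0.09 (other probe -0.07), whereas the death receptors FAS (-1.65 ± 0.09) and TNFRSF10B (-1.49 ± 0.08) and the sestrin SESN1 (-1.40 ± 0.08) were lower in U266. The p53 gene itself is not analysed here, so its label was not checked, and MDM2 was detected in neither line.

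Glutathione is the main cellular thiol, and its transferases couple it to reactive compounds. The transferase GSTP1 stood at 13.83 and 13.93 in U266, against 7.98 and 8.08 in 8226R5 and 14.50 and 14.44 in MM.1S (difference 5.85 ± 0.08, adjusted p = 6.03e-10). GSTM2 differed by 4.46 ± 0.09 and its paralog GSTM1 by 3.36 ± 0.10 (other probes 1.09 and 2.43 to 3.12), and GSTT1 was at least 3.55-fold higher in U266. GSTO1 went the other way, at 8.37 and 8.37 in U266 against 12.12 and 12.15 in 8226R5 (-3.76 ± 0.08), as did MGST2 (-0.84 ± 0.07), and GSTM4 had a difference of 0.07 ± 0.12 (adjusted p = 0.594). Glutathione reductase GSR and synthetase GSS differed by -0.13 and -0.00 (adjusted p = 0.124 and 0.986), and PRDX1, a peroxidase, by -1.14 ± 0.08. Of 29 tested members 12 were higher and 12 lower, beside 39.6% of all tested genes each way. Among 16 tested NRF2 targets 9 were higher and 7 lower in U266, with KEAP1, the inhibitor of NRF2, at 2.23 ± 0.08, SQSTM1 at 1.94 ± 0.07, HMOX1 at least 2.55-fold higher, and NQO1 (-1.47 ± 0.11) and SRXN1 (-1.40 ± 0.08) lower. The cystine transporter SLC7A11 was detected on 1 U266 array (6.48) and on no 8226R5 array, and so was not tested.

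Metallothioneins are short proteins that hold zinc through their many cysteines and are switched on by metals through metal response elements. MT2A stood at 6.46 and 6.55 in U266, against 12.80 and 12.77 in 8226R5 and 7.22 and 7.22 in MM.1S (difference -6.28 ± 0.07, adjusted p = 5.34e-10). MT1X differed by -4.19 ± 0.08 and MT1F was at least 7.4-fold lower in U266, while MT1E differed by 0.31 ± 0.11; probes of this family can share signal. The zinc importer SLC39A10 was at least 2.56-fold lower in U266, and MTF1, the factor that binds the elements, differed by 0.59 ± 0.09. Of 10 tested members 3 were higher and 7 lower in U266, 4 of those detected in 8226R5 only, so that they could differ in 1 direction alone. On the treated arrays MT2A differed by -1.74.

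The promoters of the 2 metallothioneins that differed most among genes with a level in both lines are shown for their metal response elements, in capitals: TGCACNC or TGCGCNC on either strand, with overlapping matches each counted. The sequences are from RefSeq on GRCh38.p14, from 250 bases before to 50 after the gene start, both on the plus strand, MT2A at chr16:56608334-56608633 and MT1X at chr16:56682220-56682519. The MT2A window holds 8 matches and the MT1X window 4, and 0.593% of 27305 such promoters hold 4 or more.
MT2A: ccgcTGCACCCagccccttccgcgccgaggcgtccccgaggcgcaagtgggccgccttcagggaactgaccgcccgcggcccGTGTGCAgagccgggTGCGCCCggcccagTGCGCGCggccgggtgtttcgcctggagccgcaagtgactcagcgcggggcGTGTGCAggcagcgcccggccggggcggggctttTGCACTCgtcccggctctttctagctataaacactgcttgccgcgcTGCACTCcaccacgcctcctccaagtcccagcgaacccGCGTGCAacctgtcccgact
MT1X: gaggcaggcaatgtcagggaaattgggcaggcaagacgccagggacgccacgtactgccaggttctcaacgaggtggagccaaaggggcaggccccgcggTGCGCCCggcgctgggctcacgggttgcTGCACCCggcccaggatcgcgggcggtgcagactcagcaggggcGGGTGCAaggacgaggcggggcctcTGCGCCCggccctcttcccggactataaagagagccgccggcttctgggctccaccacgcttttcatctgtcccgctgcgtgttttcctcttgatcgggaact

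Interferon-response genes, which are switched on by interferons in antiviral defence, differed in both directions. Higher in U266 were the antiviral GTPase MX1, the small mitochondrial protein IFI27, the sensor OAS1 and the factor IRF9. MX1 averaged 14.64 in U266 and 10.41 in 8226R5 (4.23 ± 0.10), and IFI27 stood at 11.80 and 11.88 in U266, against 6.61 and 6.59 in 8226R5 (5.24 ± 0.10), with MM.1S at 4.99 and 5.23. OAS1 and IRF9 differed by 3.11 ± 0.09 and 2.59 ± 0.08. Lower in U266 were the membrane proteins IFITM2, at 6.66 and 6.59 against 13.42 and 13.41 (-6.79 ± 0.07), and IFITM1 (-5.54 ± 0.08), EPSTI1 (-3.13 ± 0.09) and the guanylate-binding protein GBP1, at least 20.8-fold. ISG15 had a difference of -0.01 ± 0.08 (adjusted p = 0.939). Of 39 tested members 22 were higher and 13 lower, with a median of 0.72, or 0.48 with undetected genes at their bounds. By 2-fold, 74.4% of them passed, beside the 32.2% over all genes.

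The promoters of 1 gene of each direction are shown for the interferon-stimulated response element, in capitals: TTTCNNTTTC on either strand, with overlapping matches each counted. IFITM1, lower in U266, lies at chr11:313790-314089, and IFI27, higher in U266, at chr14:94110486-94110785 (RefSeq, GRCh38.p14, plus strand, the same window as above). Both windows hold 2 matches. Of the 27305 promoters 0.271% hold 2 or more, and 3.65% hold at least 1. The window of MX1, higher in U266 and not shown, holds 1 match. Of the 31 list members with a promoter in the table, 20 held a match.
IFITM1: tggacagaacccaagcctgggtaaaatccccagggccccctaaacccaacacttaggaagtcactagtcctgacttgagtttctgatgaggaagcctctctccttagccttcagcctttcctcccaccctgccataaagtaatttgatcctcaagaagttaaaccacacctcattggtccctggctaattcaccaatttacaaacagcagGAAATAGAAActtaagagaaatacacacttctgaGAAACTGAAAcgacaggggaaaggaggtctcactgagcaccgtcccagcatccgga
IFI27: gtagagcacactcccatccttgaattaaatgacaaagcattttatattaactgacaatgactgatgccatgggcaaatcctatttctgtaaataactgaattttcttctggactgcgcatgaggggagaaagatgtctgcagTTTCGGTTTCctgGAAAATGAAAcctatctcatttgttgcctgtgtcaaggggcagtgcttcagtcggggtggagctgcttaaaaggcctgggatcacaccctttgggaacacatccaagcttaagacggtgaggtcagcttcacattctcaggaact

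HLA genes serve antigen presentation. Of 29 tested members of this list 11 were higher and 15 lower in U266 (median -0.21), beside 39.6% of all tested genes each way. HLA-DRA, the alpha chain of the class II molecule HLA-DR, stood at 14.40 and 14.39 in U266 and at 14.44 and 14.36 in 8226R5, with overlapping arrays (difference -0.002 ± 0.075, adjusted p = 0.981; its other probe gave -0.36). The class II genes HLA-DRB1 (3.70 ± 0.12) and HLA-DRB5 (at least 22.1-fold) were higher in U266, whereas HLA-DPA1 (-1.01 ± 0.08), HLA-DQB1 (-1.30 ± 0.08), HLA-DOB (-1.45 ± 0.11) and HLA-DMB (-0.63 ± 0.07) were lower. Higher in U266 were also the class I genes HLA-B, HLA-C and B2M by 1.14 ± 0.07, 1.77 ± 0.08 and 1.04 ± 0.07. The probes of the HLA genes differ in how well they match each line's alleles, which was not tested. The peptide transporter TAP2 differed by -2.15 ± 0.09 and the class II transactivator CIITA by -0.86 ± 0.18.

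Cancer-testis antigens are genes of the germ line that tumours re-express, most of them on the X chromosome. PAGE2B stood at 14.29 and 14.34 in U266, against 5.39 and 5.15 in 8226R5 and 5.86 and 5.57 in MM.1S (at least 210-fold), and PAGE2 was at least 164-fold higher in U266. MAGEA4, MAGEA1 and CTAG2 were at least 68.8-fold, 62.2-fold and 56.3-fold higher, and of these MAGEA1 was the only one bright in MM.1S (11.21 and 11.24). All 29 tested of 50 analysed were higher in U266, but 24 of them were detected in U266 only, so they could differ in 1 direction alone; 19 of the 50 were detected in neither line. These genes occur as near-identical copies whose probes can share signal. The 4 members detected in both lines were PAGE5 (5.04 ± 0.11), CT45A1 (3.67 ± 0.08, other probes 1.29 and 1.30), CSAG3 (0.67 ± 0.10) and MAGEB1 (0.33 ± 0.11). Other probes of MAGEA4, MAGEA1 and CTAG2 gave 4.71, 4.60 and 2.20 log2 units, below the bounds.

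**Figure D4:**
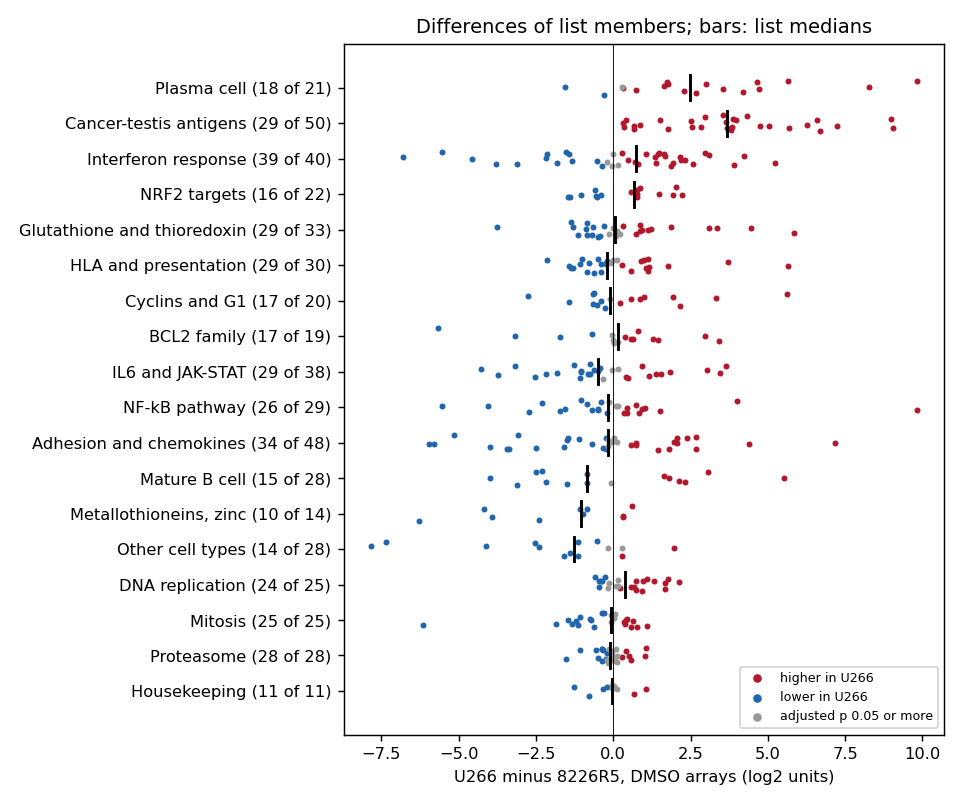
Difference of each tested list member (U266 minus 8226R5, log2 units; n = 2 arrays per line) in 18 gene lists, with the number tested of the number analysed, and each list's median as a black bar. Plasma cell genes and cancer-testis antigens lie to the right, markers of other cell types to the left, and proteasome and housekeeping genes near 0.

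Adhesion and homing genes showed 13 higher and 16 lower of 34 tested, beside 39.6% of all tested genes each way. The chemokine receptor CCR7, which guides lymphocytes to lymph nodes, stood at 4.76 and 5.88 in U266, not detected, against 11.17 and 11.08 in 8226R5, and VCAM1 and CXCL10 were at least 16.4-fold and 23.7-fold lower in U266, though the other VCAM1 probe differed by -1.79 log2 units. CD44 (-3.07 ± 0.07, other probes -1.07 and -2.71) and the integrin ITGB2 (-3.36 ± 0.08) were lower, whereas CXCR4, the receptor that holds plasma cells in marrow, was higher by 2.66 ± 0.08 and CCR2 by at least 13.3-fold (other probes 1.22 to 3.93 log2 units). Of 28 B cell markers analysed, 13 were detected in neither line, beside 9230 of all 20046 genes. MS4A1 (CD20), PAX5 and PTPRC (CD45) were among the 13. Of 15 tested, 6 were higher and 8 lower in U266, beside 39.6% of all tested genes each way. CD79B, a chain of the B cell receptor, differed by 3.07 ± 0.09, its partner CD79A was at least 4.93-fold lower in U266, and CD83 differed by -3.99 ± 0.10.

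Drug-response genes included ABCC4, an efflux pump, at least 8.68-fold lower in U266. CRBN, the target of thalidomide-type drugs, differed by 1.70 ± 0.08, and its substrates IKZF1 and IKZF3 by at least 3.49-fold and by 0.69 ± 0.11, all higher in U266. On the treated arrays IKZF3 differed by -0.36. The pump ABCB1 was at least 1.46-fold lower in U266 and the glucocorticoid receptor NR3C1 differed by 0.19 ± 0.09 (adjusted p = 0.0981). Endoplasmic reticulum genes had 11 higher and 7 lower of 22 tested, beside 39.6% of all tested genes each way. SYVN1, a ligase for misfolded proteins, differed by 1.61 ± 0.08 and TRIB3 by -2.45 ± 0.08. Proteasome subunits, the target of bortezomib, had 6 higher and 10 lower of 28, and 14.3% passed 2-fold, beside 32.2% of all tested genes; POMP, which assembles the core, had the widest difference at -1.53 ± 0.07. Housekeeping genes had 2 higher and 4 lower of 11, with ACTB at -0.02 ± 0.09 and PPIA at -1.26 ± 0.09.

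Replication and mitotic genes were tested as separate lists, and the lists were not tested against each other. Of 24 tested replication genes 13 were higher and 6 lower in U266 (list median 0.38), with the helicase subunits MCM4, MCM5 and MCM6 at 1.67 (other probe 1.04), 1.76 and 1.67 and the nucleotide reductase RRM2 at 2.11 ± 0.09. Of 25 mitotic genes 8 were higher and 12 lower (list median -0.07), beside 39.6% of all tested genes in each direction. The spindle proteins PRC1 (1.10 ± 0.09), KIF23 (0.76 ± 0.08) and NUSAP1 (0.62 ± 0.08) were among the higher ones, and the kinases AURKA (-1.33 ± 0.08) and AURKB (-1.46 ± 0.08) and the cyclin CCNB1 (-1.84 ± 0.08) among the lower ones. UBE2C, the ubiquitin enzyme of mitotic exit, stood at 6.04 and 6.21 in U266, not detected, against 12.29 and 12.25 in 8226R5 and 12.40 and 12.39 in MM.1S, while its other probe gave -1.60. Shares of cells in each cycle phase were not measured.

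The line difference was measured again on the 4 arrays treated with 40 µM PRIMA-1Met, which share no sample with the DMSO arrays. There 7975 genes were called (77.5%), 3181 of them at 2-fold (30.9%). Of the 3312 genes past 2-fold in DMSO, 3223 (97.3%) were called in the same direction in the treated arrays, 2610 of them again past 2-fold, and 43 had the opposite sign. TNFRSF17 differed by 8.41, EPCAM by -8.01, CD3D by -7.47 and CCND1 by 5.06 in the treated arrays.

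**Figure D5:**
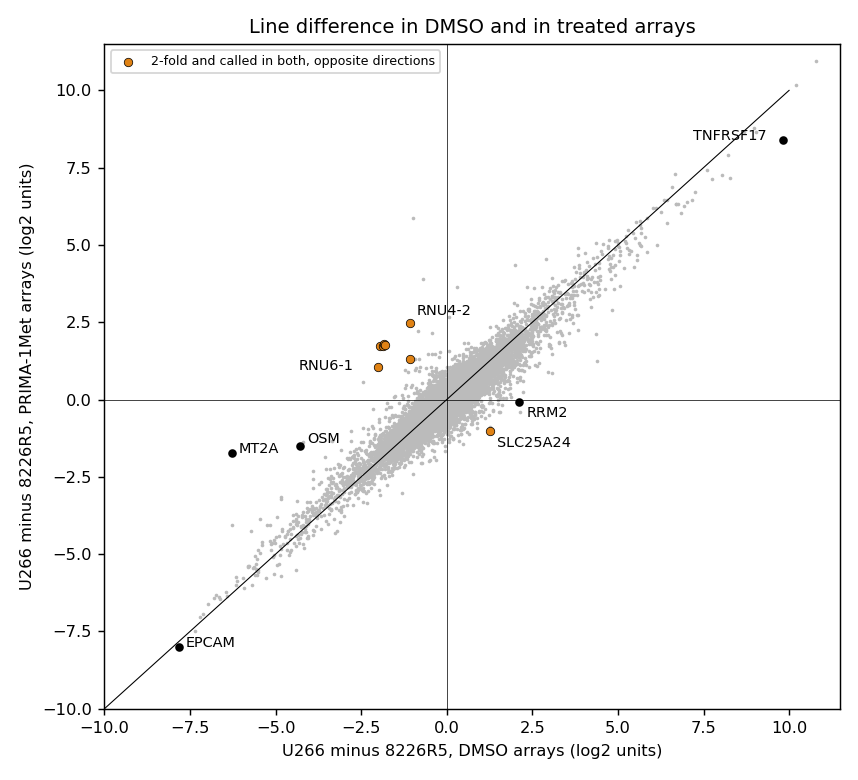
Difference between the lines (U266 minus 8226R5, log2 units) of the 10287 tested genes on the DMSO arrays (horizontal) and on the PRIMA-1Met arrays (vertical), n = 2 arrays per line and treatment. Most genes lie along the line of equality, as TNFRSF17 and EPCAM do, and 8 genes past 2-fold in opposite directions are marked.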

How the data were processed

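The series holds 12 Illumina HT-12 arrays of total RNA. A deposited table gives, per the file headers, a signal intensity and a detection p-value for each probe and array; a second deposited table gives log2 values, which the values show to be quantile normalised by the authors over the 12 arrays. BeadStudio, lumi and limma are named in the submitters' processing notes. On 9 arrays the intensities and detection p-values were displaced by 1 position from probe 22924 on, against the log2 table, and were realigned (Spearman 0.51 to 0.529 before, 1 after); 47321 probes were analysed, of which 30111 had 1 gene symbol, 8 several and 17202 none. Columns were matched by title, with 0 unmatched. No genome build is named for the probes.

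Kept genes had a probe detected (p under 0.01) on 2 or more of the 4 arrays compared, and each was represented by its brightest kept probe; 2527 had several, and in 483 another probe had the opposite sign. With limma 3.58.1 in R 4.3.3, 1 mean for each of 3 lines was fitted to the 6 DMSO arrays (3 residual degrees of freedom), with eBayes, two-sided tests and Benjamini-Hochberg adjustment over the 10287 genes. The treated comparison used the 4 treated arrays of both lines. Bounds set a line undetected on both arrays to the lowest detected log2 value of each array, or its own if higher. The small number of arrays limits the precision. In simulated data for these 10287 genes, the fit called 55.2% of 67 genes moved by 0.5, 94% of 67 moved by 1 and 98.5% of 66 moved by 2 log2 units, and 8 unmoved genes. Few genes were moved there, whereas 79.2% were called in the data. The adjustment was therefore stricter in the simulation, and its shares are no rates for the real comparison.

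The comparison, its 24 gene lists and the rule for naming were chosen with earlier results of these data known. The rule named the 10 largest differences each way among genes detected on all 4 arrays and the 10 brightest genes detected in 1 line only. It also took up to 4 members of each list, the longest runs in gene order, and a fixed set. Other genes were named as list members after their values were seen. A few fixed genes are not analysed here.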

Additional observations from a re-analysis of the deposited data

Results flagged for a closer look

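For 8 genes the lines differed by over 2-fold in opposite directions on the treated and the DMSO arrays, and the change of the difference passed limma's interaction test on the 8 arrays (adjusted p = 2.28e-07 to 0.00141), as it did for 3114 genes (30.3%) in all. The spliceosomal and nucleolar small RNAs were lower in U266 on the DMSO arrays and higher on the treated ones. The treated difference minus the DMSO difference was 3.08 log2 units for RNU6-1, 3.66 for RNVU1-7, 3.59 for RNVU1-18, 3.63 for RNU1-3, 3.56 for RNU1-1, 3.57 for RNU4-2 and 2.39 for SNORD3D. RNU6-1 stood at 14.26 and 14.14 in treated U266 and 13.07 and 13.20 in treated 8226R5, against 10.80 and 10.72 in U266 and 12.81 and 12.73 in 8226R5 with DMSO. The U1 genes are near-identical copies whose probes can share signal, so they are not separate observations.

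SLC25A24, a mitochondrial carrier, moved the other way, by -2.27. It was detected on the U266 DMSO arrays alone (6.89 and 6.79), and its treated values of 5.50 and 4.80 in U266 and 6.09 and 6.25 in 8226R5 were all below detection. No group holds enough arrays for a test of single outlying samples.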

How the results depend on the processing

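The calls at an adjusted p of 0.05 (8149 genes) numbered 6191 to 8559 over the alternatives, and the calls at 2-fold (3312) 3225 to 4073, except that genes detected on all 4 arrays gave 1880 at 2-fold, with 7806 genes tested in place of 10287. Leaving out 1 array gave 7401 to 8166 calls and 3289 to 3327 at 2-fold. Median scaling of neqc-corrected signals moved the median of all genes to 0.234 and the calls to 5001 higher and 3205 lower in U266 (60.9% higher, against 50% in the quantile-normalised values). Averaging all probes of a gene turned the direction of 26 called genes. HLA-DRA, with no call, went to 0.0 without U266 replicate 2, and ranged from -0.05 to 0.04 over the arrays left out, with 0.04 without 8226R5 replicate 1. Of 131 named genes in all alternatives, 2299 values kept direction and call and 5 did not, the others being HLA-DRA with all probes averaged (-0.18, adjusted p = 0.0476), CYLD (-0.29, 0.0986) and NR3C1 (0.49, 0.0116), both with median scaling. Same-numbered arrays of the lines did not deviate together (correlation of deviations -0.0197 to 0.0208), so the numbers do not pair the samples; a fit with the replicate number as a block called 8108 genes. The array chip as a block was not run, because the headers used here give no chip. Levels near the detection limit, about 6.4 to 6.6 log2 units on these 4 arrays, give bounds only.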

Other observations

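Genes detected in 1 line only followed each other in places, by gene order in the RefSeq table of GRCh38.p14. Genes not analysed or detected in neither line were passed over, so members of a run need not be direct neighbours. The longest run held 10 genes of the X chromosome detected in U266 only, GAGE12J, GAGE12B, GAGE12C, GAGE12E, GAGE12F, GAGE12G, GAGE12H and GAGE2A, then PAGE1 and CLCN5, and the GAGE copies can share probe signal. On chromosome 9 KLHL9, MTAP, CDKN2A, CDKN2B and DMRTA1 formed a run of 5 detected in U266 only. KLHL9 stood at 9.49 and 9.47 in U266, against 5.30 and 5.22 in 8226R5, and 8.30 and 8.35 in MM.1S. MTAP, an enzyme of the methionine salvage pathway, stood at 9.68 and 9.63 in U266, against 5.81 and 6.16 in 8226R5, and 9.29 and 9.20 in MM.1S. Copy number was not measured. LINC01634, PEX26, USP18, TMEM191B and PI4KAP1 formed a run of 5 on chromosome 22 in U266.

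In 8226R5 only, CHFR, ZNF26, ZNF84, ZNF140 and ZNF10 formed a run of 5 on chromosome 12, L3MBTL3, SAMD3, TMEM200A, EPB41L2 and AKAP7 a run of 5 on chromosome 6, and the KIR family 2 runs of 5 on chromosome 19, with shared probe signal possible. No chance expectation was set against these runs.

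The widest gap between replicates was in CDS1, which stood at 4.11 and 0.01 on the U266 arrays, both undetected, against 6.72 and 7.10 on the 8226R5 arrays. The second U266 value lies far below all its neighbours in level.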
